A study of Homo sapiens with 6 samples.

Results

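HIF1A and 9 genes known as targets of the hypoxia-inducible factors (HIFs) were examined in U2OS cells, a human osteosarcoma line, after depletion of the zinc finger transcription factor E4F1. The 10 genes were HIF1A, VEGFA, NDRG1, CA9, ADM, BNIP3, EGLN1, EGLN3, ANKRD37 and KDM3A, of 58219 genes in the count tables. They were chosen by name as hypoxia genes outside glycolysis, with earlier results of these data known. One group of 3 libraries came from U2OS cells that received an shRNA labelled E4F1, and the other group of 3 from U2OS cells that received a scramble (control) shRNA. All cells were grown in DMEM with 10% FBS, infected for 24 h and selected with puromycin for 48 h, and RNA was taken at 72 h. Both groups were therefore transduced and selected, and the labels describe 3 independent pools of cells. The labels name no second E4F1 hairpin and no low-oxygen treatment, so the levels below are those of cells in this culture medium. Polyadenylated RNA was sequenced, and reads were counted per gene on the strand of the transcript. Because these are bulk samples, fewer cells that express a gene and less RNA per cell cannot be told apart.

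HIFs are pairs of an alpha subunit (HIF1A or EPAS1) and the partner ARNT that bind DNA at short elements with the core ACGTG or GCGTG. When oxygen is present, prolyl hydroxylases (EGLN1, EGLN2 and EGLN3) modify the alpha subunit, the VHL ubiquitin ligase recognises the modified protein, and the proteasome degrades it. Control of HIF1A is thus mainly at the protein level, which RNA sequencing does not measure. When oxygen falls, the alpha subunit accumulates and the factor raises transcription of genes for blood vessel growth, glycolysis, pH control and removal of mitochondria, and of the hydroxylases EGLN1 and EGLN3 themselves.

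The members moved in both directions. In the edgeR quasi-likelihood test at an adjusted p of 0.05 over all genes, VEGFA, EGLN3, EGLN1 and HIF1A rose in E4F1 shRNA cells, NDRG1 and ADM fell, and BNIP3, KDM3A and ANKRD37 did not pass. CA9 had too few reads to be tested. Of the 15765 genes tested, 14.4% were higher and 14.4% were lower in E4F1 shRNA cells, against 4 higher and 2 lower of the 9 members tested. The 3 libraries of one group did not overlap with those of the other for 6 of the 9 members, and for 41.8% of all genes tested. The median log2 fold change was 0.11 over the 9 members tested and −0.01 over all genes tested, and the members ranged from −0.51 to 0.81.

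**Figure D1:**
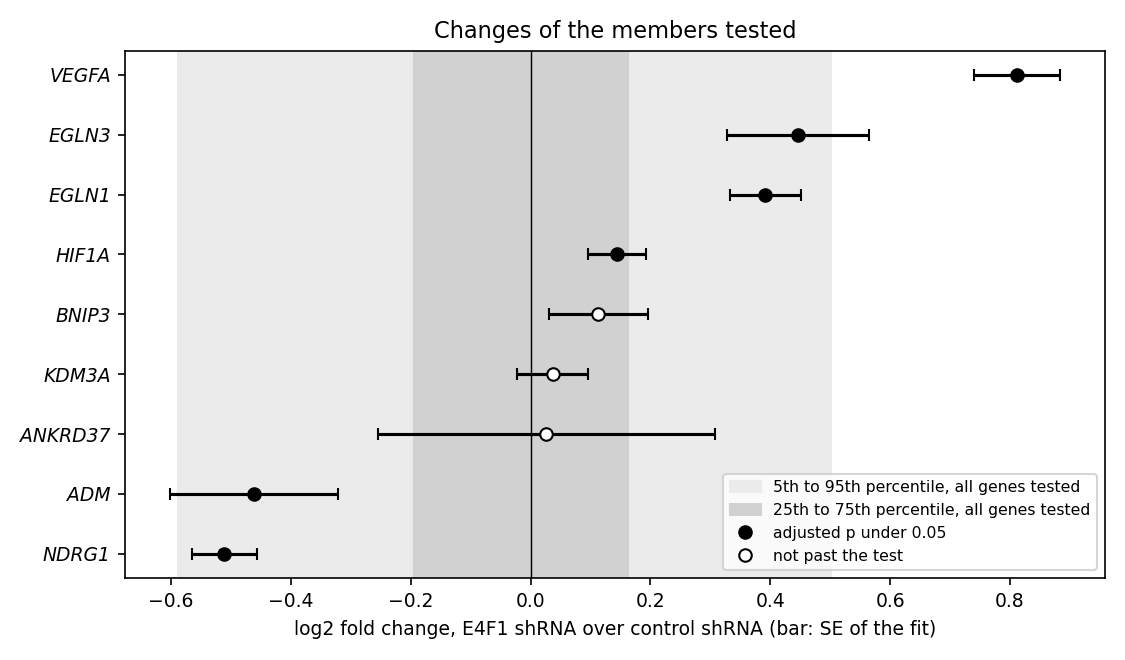
Log2 fold change, E4F1 shRNA over control shRNA, of the 9 members tested, with the SE of the fit as bars; filled points passed an edgeR adjusted p of 0.05 and open points did not. Shaded bands show where the middle of all 15765 genes tested lay (25th to 75th percentile −0.19 to 0.16, 5th to 95th percentile −0.59 to 0.50). VEGFA at 0.81 lay beyond the wider band, and HIF1A, BNIP3, KDM3A and ANKRD37 lay within the narrower one.

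The libraries held 16159934 to 16892139 reads in genes in E4F1 shRNA cells and 14947085 to 16284450 in control cells. E4F1 mRNA, the gene targeted, had 51, 53 and 41 reads in the E4F1 shRNA libraries and 233, 286 and 297 in the control libraries, in edgeR −2.57 on the log2 scale (SE 0.135, adjusted p = 7.66e-10). A cell cycle score, the mean log2 level of 29 replication and mitosis genes centred on all libraries, was 0.18, 0.18 and 0.069 in the E4F1 shRNA libraries and −0.18, 0.055 and −0.30 in the control libraries. Of these 29 genes 17 rose, beside 14.4% of all genes tested. The summed level of all 29 was 7591 to 8251 CPM (reads in a gene relative to the TMM-scaled library total) in E4F1 shRNA cells and 5878 to 7404 CPM in control cells. The part of this difference in the results below was not tested beyond a fit with the score as a covariate. That score differs between the groups itself, and the fit called 1063 genes against 4550 without it. Of 9 osteoblast lineage markers 6 were tested, with a summed level of all 9 of 2317 to 2411 CPM in E4F1 shRNA cells and 2556 to 2618 CPM in control cells. SP7, BGLAP and IBSP were at or near 0, and COL1A2, though tested, averaged only 0.677 CPM in E4F1 shRNA cells and 0.771 CPM in control cells. Of the 6 tested, COL1A1 (−0.16 on the log2 scale, edgeR adjusted p = 0.0422) and SPP1 (−0.43, edgeR adjusted p = 0.00981) fell, beside 14.4% of all genes tested. The groups overlapped for SPP1, with control library 2 at 47.8 CPM and the E4F1 shRNA libraries at 45.9 to 49.3 CPM. COL1A1 has 61.1% GC, and the genes with 60% to 62.5% GC had a median log2 fold change of −0.15. Summed markers of other cell types came to 14.3 to 15.9 CPM in E4F1 shRNA cells and 13.8 to 15.7 CPM in control cells for 5 epithelial genes, to 1.49 to 2.99 CPM in E4F1 shRNA cells and 2.14 to 2.44 CPM in control cells for 5 blood genes, and to 3.51 to 3.72 CPM in E4F1 shRNA cells and 3.28 to 4.08 CPM in control cells for 5 endothelial genes. Of the epithelial genes EPCAM rose (0.43 on the log2 scale, edgeR adjusted p = 0.0229) and CDH1 fell (−0.41, edgeR adjusted p = 0.0442), beside 14.4% of all genes tested in each direction. The part of these markers in the results was not tested.

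The promoter windows of the members were searched for the HIF core motif. RefSeq windows from 250 bases before to 50 bases after a start site (GRCh38.p14) were searched for 8 of the 10 members. VEGFA had no window, and a window of NDRG1 was left out of the search and is not reported here. ACGTG, searched on both strands, was in the windows of CA9, BNIP3, EGLN1 and ANKRD37, and GCGTG in those of HIF1A, ADM, BNIP3 and KDM3A. Either core was in a window of 7 of the 8, all but EGLN3, and of 52.4% of the 27305 genes in the table (ACGTG of 24.9%, GCGTG of 40.6%). The palindrome CACGTG, which holds ACGTG on both strands, was in the windows of BNIP3 and ANKRD37 and in those of 8.77% of all genes. TGACGT, the core of a cAMP response element, which overlaps ACGTG where G follows, was in 0 of the 8 and in windows of 9.64% of all genes. 4 windows are printed 5′ to 3′ on the gene's strand, with the cores of either strand in capitals, because they belong to a gene that rose (EGLN1), one that fell (ADM) and both that did not pass the test with more than 1 core in a window (BNIP3, ANKRD37). Their GC content was 65% to 80.7%. They lie at chr1:231422238-231422537 (minus strand) for EGLN1, chr11:10304823-10305122 (plus) for ADM, chr10:131981874-131982173 (minus) for BNIP3 and chr4:185396591-185396890 (plus) for ANKRD37. A match is a description of letters and not a bound site.
EGLN1: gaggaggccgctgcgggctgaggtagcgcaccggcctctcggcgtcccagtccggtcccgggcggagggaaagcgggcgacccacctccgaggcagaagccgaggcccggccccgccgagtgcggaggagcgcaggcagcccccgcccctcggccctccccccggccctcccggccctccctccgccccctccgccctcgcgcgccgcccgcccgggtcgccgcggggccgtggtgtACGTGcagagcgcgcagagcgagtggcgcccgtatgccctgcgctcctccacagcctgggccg
ADM: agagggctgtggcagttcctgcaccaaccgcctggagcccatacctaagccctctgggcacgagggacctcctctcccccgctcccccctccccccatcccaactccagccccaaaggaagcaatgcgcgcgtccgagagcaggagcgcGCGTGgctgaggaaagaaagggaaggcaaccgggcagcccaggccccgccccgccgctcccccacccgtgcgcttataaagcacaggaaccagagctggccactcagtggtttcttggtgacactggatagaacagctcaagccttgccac
BNIP3: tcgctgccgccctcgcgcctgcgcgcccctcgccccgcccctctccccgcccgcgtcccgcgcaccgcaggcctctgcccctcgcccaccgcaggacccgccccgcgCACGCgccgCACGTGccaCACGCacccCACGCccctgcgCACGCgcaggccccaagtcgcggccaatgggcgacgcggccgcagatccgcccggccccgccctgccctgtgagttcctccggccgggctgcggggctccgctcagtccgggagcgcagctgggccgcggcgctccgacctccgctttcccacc
ANKRD37: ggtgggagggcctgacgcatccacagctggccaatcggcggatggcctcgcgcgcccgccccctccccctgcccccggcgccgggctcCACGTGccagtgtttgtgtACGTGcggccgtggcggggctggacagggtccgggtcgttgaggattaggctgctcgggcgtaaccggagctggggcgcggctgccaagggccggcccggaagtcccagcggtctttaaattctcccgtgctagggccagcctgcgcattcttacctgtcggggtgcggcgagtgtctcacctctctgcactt

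Counted from the start site, the core of EGLN1 begins at position −13 and that of ADM at −101. The BNIP3 window has 6 matches between −143 and −104, of which 2 are the strands of one CACGTG, and the ANKRD37 window has 3 between −162 and −143, again with 2 from one CACGTG. Of the windows searched, the one with the most matches belongs to BNIP3 and has 80.7% GC. A relation between matches and mRNA changes was not tested, and sequence outside the windows was not searched.

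HIF1A, the oxygen-regulated alpha subunit, had the highest level of the members and rose slightly. The gene (ENSG00000100644.16, GRCh38 chromosome 14, 61695513 to 61748259, plus strand) had 486, 495 and 483 CPM in the E4F1 shRNA libraries and 439.5, 445 and 439 CPM in the control libraries. Every E4F1 shRNA library was above every control library. The mean was 488 ± 6.13 CPM in E4F1 shRNA cells and 441 ± 3.35 CPM in control cells (SD, n = 3 each), a 1.11-fold level (log2 fold change 0.14, SE 0.0485, edgeR adjusted p = 0.0326). This call was lost when any of 4 libraries was left out, control 1, control 3, E4F1 shRNA 1 or E4F1 shRNA 2 (edgeR adjusted p = 0.0679 to 0.112), and once the cell cycle score was a covariate (0.359). The log2 fold change itself was 0.14 to 0.16 over the 6 fits that left out a library and 0.12 with the score.

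The HIF1A difference was of the size that genes of like base composition showed. HIF1A mRNA has 36.4% GC, against a median of 47.9% over the genes tested, and the 780 genes with 35% to 37.5% GC had a median log2 fold change of 0.14, with 32.9% of them higher at the edgeR threshold. At the other end, the 100 genes with 67.5% to 70% GC had a median of −0.22. The smoothed deviation of the libraries at the GC content of HIF1A was 0.089, 0.074 and 0.064 in the E4F1 shRNA libraries and −0.034, −0.076 and −0.097 in the control libraries on the log2 scale. With this trend taken as an offset, the log2 fold change of HIF1A was 0.00 (edgeR adjusted p = 0.999). Of the other members called, ADM with 58.5% GC lost its call under the offset, and VEGFA, EGLN1, EGLN3 and NDRG1 kept theirs.

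**Figure D2:**
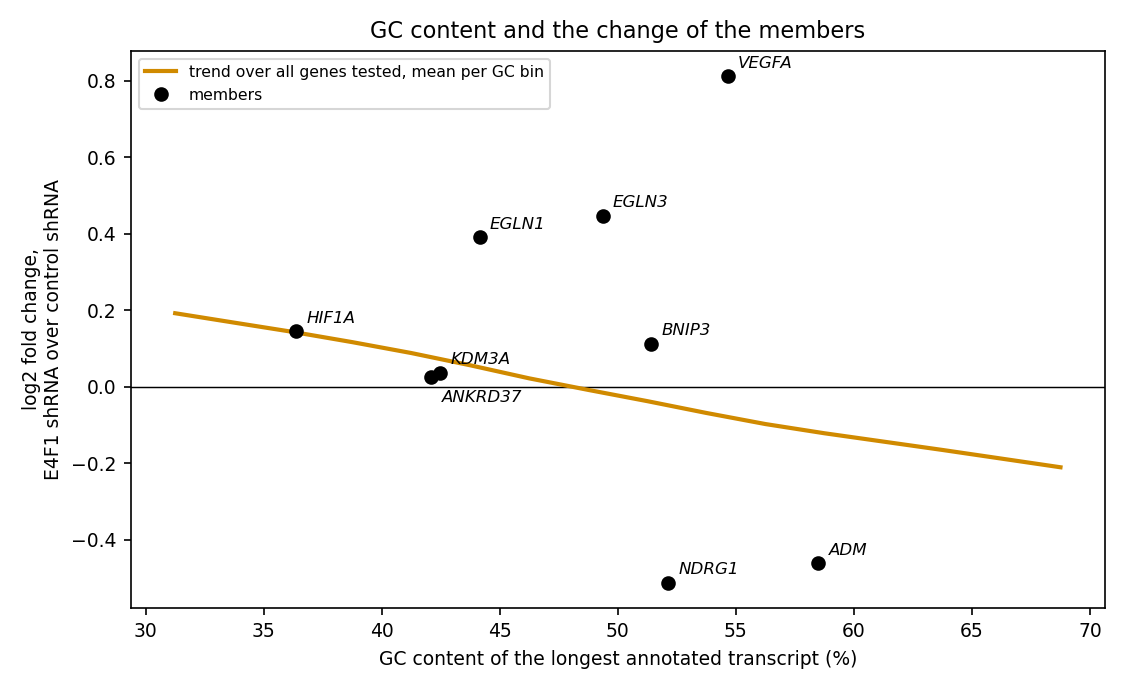
Log2 fold change of the 9 members tested (E4F1 shRNA over control shRNA, vertical axis) against the GC content in percent of their longest annotated transcript (horizontal axis), with the trend over all genes tested as a line. HIF1A, at 36.4% GC and 0.14, lies on the line, and VEGFA, EGLN1 and EGLN3 lie above it and NDRG1 and ADM below it.

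Of the 5 HIF subunit genes 4 were tested, and HIF1A, EPAS1 and ARNT2 rose, beside 14.4% of all genes tested. EPAS1, the alpha subunit of HIF-2, had 28.2, 28.7 and 35.1 CPM in E4F1 shRNA cells and 24.8, 22.6 and 25.7 CPM in control cells (log2 fold change 0.33, SE 0.0912, edgeR adjusted p = 0.0109). ARNT2, a partner subunit related to ARNT, averaged 15.4 ± 1.31 CPM in E4F1 shRNA cells and 10.1 ± 1.76 CPM in control cells (SD, n = 3 each), in edgeR 0.62 on the log2 scale (SE 0.123, adjusted p = 0.00130). ARNT itself averaged 57.8 ± 2.45 CPM in E4F1 shRNA cells and 58.0 ± 1.26 CPM in control cells (log2 fold change −0.01, SE 0.0608, edgeR adjusted p = 0.951), and HIF3A was too low to test. EPAS1 lost its call in 1 of 17 alternatives, without E4F1 shRNA library 3 (0.23, edgeR adjusted p = 0.0695), and ARNT2 in 1, with the cell cycle score (0.214). Per kb of merged exons, HIF1A stood at 94.7 CPM in E4F1 shRNA cells and 85.7 CPM in control cells, whereas EPAS1 stood at 4.20 CPM in E4F1 shRNA cells and 3.33 CPM in control cells, and ARNT at 8.86 CPM in E4F1 shRNA cells and 8.90 CPM in control cells. CITED2, which competes with HIF1A for the coactivators CBP and p300, rose to 72.3 ± 1.57 CPM, against 62.5 ± 1.31 CPM in control cells (log2 fold change 0.21, SE 0.0571, edgeR adjusted p = 0.0104). The coactivator genes EP300 and CREBBP did not pass. With the cell cycle score CITED2 stood at 0.18 and lost its call (edgeR adjusted p = 0.254). CREBBP passed with the GC offset at 0.22 (0.00751) and without control library 2 at 0.18 (0.0184).

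The oxygen sensors EGLN1 and EGLN3 both rose. EGLN1, the main prolyl hydroxylase of HIF1A in most cells (ENSG00000135766.8, chromosome 1, 231363751 to 231425044, minus strand), had 69.9, 74.5 and 73.7 CPM in E4F1 shRNA libraries and 56.4, 56.4 and 53.5 CPM in control libraries. The groups were well apart, and the values within each group were close. The mean was 72.7 ± 2.43 CPM in E4F1 shRNA cells and 55.4 ± 1.68 CPM in control cells (SD, n = 3 each), a 1.31-fold level (log2 fold change 0.39, SE 0.0594, edgeR adjusted p = 0.000121). The call held under all 17 alternatives, at 0.34 to 0.43.

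EGLN3, an inducible prolyl hydroxylase (ENSG00000129521.13, chromosome 14, 33924231 to 34462774, minus strand), had 157, 150 and 150 reads in E4F1 shRNA libraries and 94, 114 and 110 reads in control libraries, which is 9.80, 8.92 and 9.15 CPM in E4F1 shRNA cells and 6.29, 7.05 and 7.07 CPM in control cells. Again the lowest E4F1 shRNA library was above the highest control library. In edgeR the change was 0.45 on the log2 scale (SE 0.118, 1.36-fold, adjusted p = 0.00911), and the call was lost in 1 of 17 alternatives, the cell cycle score as covariate (0.41, edgeR adjusted p = 0.234). The long EGLN3 locus overlaps SPTSSA on the same strand, and reads that the counter could not assign between them are in neither gene.

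EGLN2, the third hydroxylase, averaged 8.53 ± 0.709 CPM in E4F1 shRNA cells and 7.81 ± 0.306 CPM in control cells (SD, n = 3 each) and did not pass (log2 fold change 0.13, SE 0.119, edgeR adjusted p = 0.464). Over the 9 genes of the hydroxylases and the VHL ligase, 3 rose and 1 fell, beside 14.4% of all genes tested in each direction. EGLN1 and EGLN3 are members of the set above, and the median log2 fold change of the 9 was 0.08. The third that rose was CUL2, the scaffold of the ligase, at 104 ± 2.67 CPM in E4F1 shRNA cells and 93.5 ± 1.58 CPM in control cells (log2 fold change 0.16, SE 0.0534, edgeR adjusted p = 0.0351). The one that fell was the adaptor ELOB, at 67.4 ± 5.49 CPM in E4F1 shRNA cells and 77.5 ± 2.48 CPM in control cells (−0.20, SE 0.0650, edgeR adjusted p = 0.0278). CUL2 and ELOB each lost their call in 8 of 17 alternatives. Both lost it with the GC offset, at 0.05 for CUL2 and −0.06 for ELOB (edgeR adjusted p = 0.480 for each), with the cell cycle score, and without control library 1 or 3 or without E4F1 shRNA library 1 or 2. ELOB also lost it in DESeq2 (adjusted p = 0.0554). VHL, the substrate receptor, was 104 ± 2.23 CPM in E4F1 shRNA cells and 98.5 ± 0.848 CPM in control cells (0.08, edgeR adjusted p = 0.265), and HIF1AN, the asparaginyl hydroxylase, was 112 ± 2.32 CPM in E4F1 shRNA cells and 119 ± 0.704 CPM in control cells (−0.09, edgeR adjusted p = 0.230).

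VEGFA, the growth factor for blood vessels, showed the largest change of the 9 members tested. The gene (ENSG00000112715.21, plus strand of chromosome 6, 43770184 to 43786487) had 1353, 1391 and 1379 reads in the E4F1 shRNA libraries and 659, 872 and 699 reads in the control libraries. These are 84.4, 82.7 and 84.2 CPM in E4F1 shRNA cells and 44.1, 53.9 and 44.9 CPM in control cells, with control library 2 the highest of its group and still far below the E4F1 shRNA libraries. The mean was 83.8 ± 0.900 CPM in E4F1 shRNA cells and 47.7 ± 5.46 CPM in control cells (SD, n = 3 each), a 1.76-fold level (log2 fold change 0.81, SE 0.0717, edgeR adjusted p = 4.31e-07). All 17 alternatives kept the call, from 0.62 with the cell cycle score as covariate to 0.92 without control library 2.

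VEGFA was the only one of the 10 members whose annotated 3′ UTR holds CTTATCT, a heptamer that an earlier look at these data had singled out. The heptamer occurs in 1524 of the 13086 genes tested that have an annotated 3′ UTR, or 11.6%. A single member with a site is near this share, and a part of the site in the rise of VEGFA was not tested. In the 1925-base UTR of VEGFA it begins at base 1438, and the site is printed 5′ to 3′ with the heptamer in capitals to show its context on chromosome 6.
VEGFA site: acagtcactagCTTATCTtgaacagatat

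Of the 10 VEGF ligands and receptors 7 were tested, and VEGFA and NRP1 rose, beside 14.4% of all genes tested. NRP1, a co-receptor of VEGFA, averaged 78.7 ± 3.08 CPM in E4F1 shRNA cells and 63.4 ± 7.22 CPM in control cells (log2 fold change 0.31, SE 0.0726, edgeR adjusted p = 0.00395), and with the cell cycle score it was 0.08 (0.667). The other ligands tested had smaller differences that did not pass, and VEGFD was too low to test. VEGFB averaged 39.5 ± 1.73 CPM in E4F1 shRNA cells and 38.2 ± 1.82 CPM in control cells. VEGFC averaged 17.5 ± 0.571 CPM in E4F1 shRNA cells and 20.1 ± 1.84 CPM in control cells, and PGF 6.44 ± 0.302 CPM in E4F1 shRNA cells and 5.74 ± 0.496 CPM in control cells. With the GC offset VEGFB passed at a log2 fold change of 0.24 (edgeR adjusted p = 0.0207), and without control library 2 VEGFC passed at −0.26 (edgeR adjusted p = 0.0316). Of the receptor kinases, FLT1 averaged 1.71 ± 0.142 CPM in E4F1 shRNA cells and 2.30 ± 0.222 CPM in control cells, and FLT4 5.77 ± 0.286 CPM in E4F1 shRNA cells and 5.12 ± 0.933 CPM in control cells, neither past the test, and KDR was too low to test.

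ADM, the precursor of the vasodilator peptide adrenomedullin, fell. The gene (ENSG00000148926.9, plus strand of chromosome 11, 10304680 to 10307397) had 79, 86 and 67 reads in the E4F1 shRNA libraries and 95, 107 and 101 reads in the control libraries. This is 4.93, 5.12 and 4.09 CPM in E4F1 shRNA cells and 6.36, 6.62 and 6.49 CPM in control cells, with E4F1 shRNA library 3 the lowest and no overlap between groups. In edgeR the change was −0.46 on the log2 scale (SE 0.141, 0.726-fold, adjusted p = 0.0201). At these read numbers the call was lost in 6 of 17 alternatives. These were the DESeq2 Wald test (adjusted p = 0.0959), the GC offset without and with the replicate block (edgeR adjusted p = 0.0864 and 0.0906), the fits without control library 1 (0.0521) or E4F1 shRNA library 3 (0.0867), and the cell cycle score (0.149). The log2 fold change stayed between −0.56 and −0.34 throughout. Of the genes of its receptor, CALCRL averaged 0.934 ± 0.310 CPM in E4F1 shRNA cells and 1.10 ± 0.258 CPM in control cells, and RAMP2 1.46 ± 0.324 CPM in E4F1 shRNA cells and 2.04 ± 0.199 CPM in control cells, and neither passed.

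NDRG1, a cytoplasmic protein induced by hypoxia and other stresses, had the largest fall of the members. The gene (ENSG00000104419.14, minus strand) had 1416, 1515 and 1436 reads in the E4F1 shRNA libraries and 1806, 2079 and 2020 reads in the control libraries. Scaled, these were 88.3, 90.1 and 87.6 CPM in E4F1 shRNA cells and 120.8, 128.6 and 129.8 CPM in control cells, a wide gap with little spread in either group. The mean was 88.7 ± 1.28 CPM in E4F1 shRNA cells and 126 ± 4.88 CPM in control cells (SD, n = 3 each), a 0.701-fold level (log2 fold change −0.51, SE 0.0540, edgeR adjusted p = 3.17e-06). All 17 alternatives kept the call, at −0.53 to −0.46. Its 3 paralogues did not pass. NDRG2 averaged 16.8 ± 0.313 CPM in E4F1 shRNA cells and 16.0 ± 0.386 CPM in control cells, NDRG3 64.9 ± 2.61 CPM in E4F1 shRNA cells and 70.01 ± 1.23 CPM in control cells, and NDRG4 11.7 ± 0.770 CPM in E4F1 shRNA cells and 11.8 ± 0.709 CPM in control cells.

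**Figure D3:**
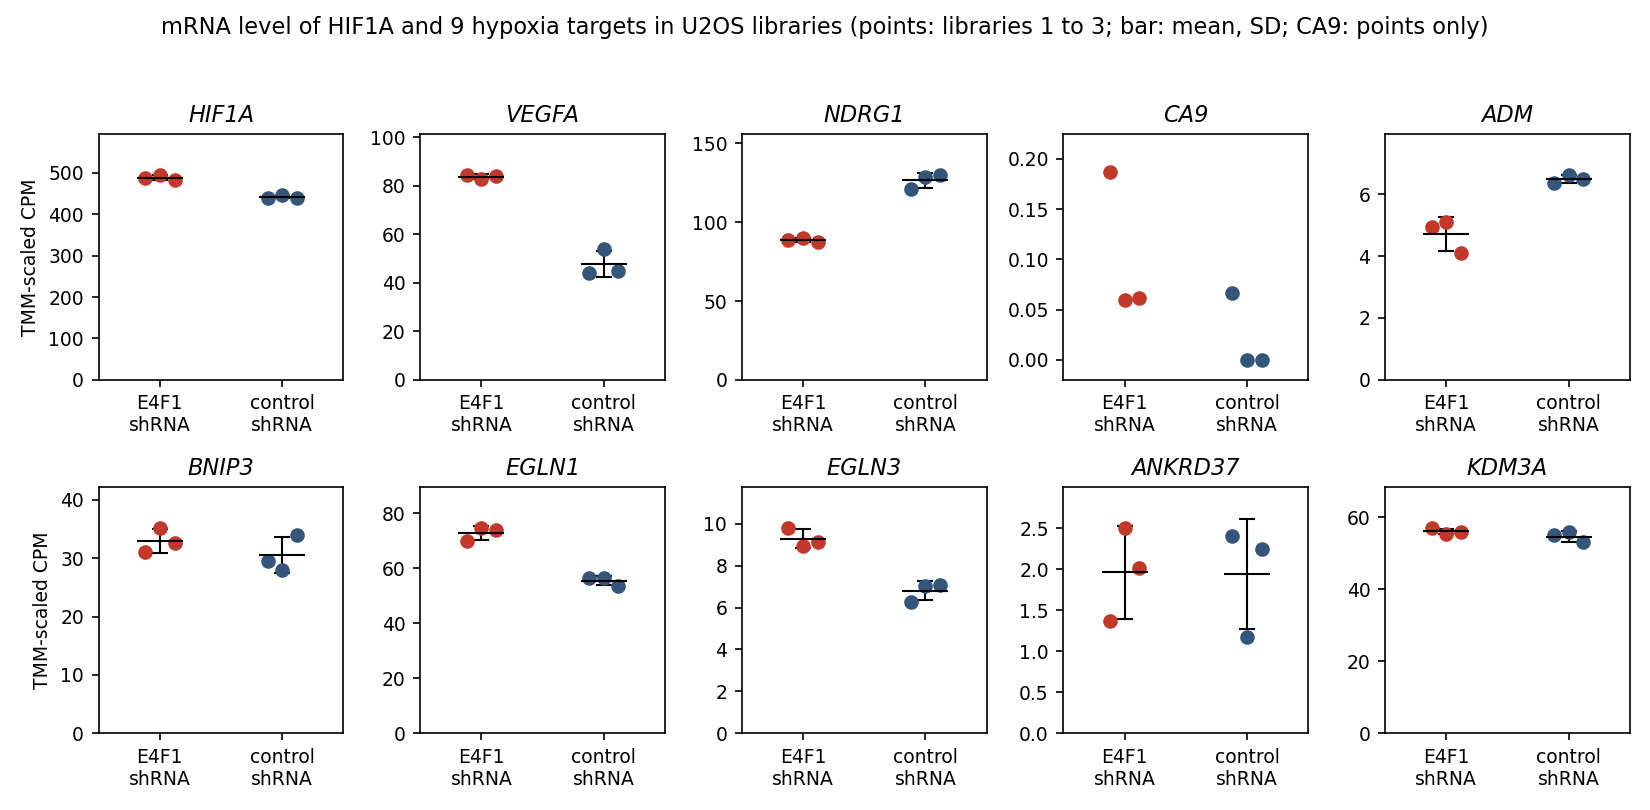
TMM-scaled CPM (vertical axis, from 0, or just under it for CA9) of each of the 10 members in the 3 E4F1 shRNA libraries and the 3 control libraries; points are libraries, and the bar with its whiskers is the mean and SD, left out for CA9. The E4F1 shRNA points of VEGFA, at 82.7 to 84.4 CPM, lie above all control points, those of NDRG1 and ADM lie below them, and those of BNIP3, ANKRD37 and KDM3A overlap with them.

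BNIP3, a receptor on the outer mitochondrial membrane that marks mitochondria for autophagy, did not pass the test. The gene (ENSG00000176171.11, chromosome 10, 131966455 to 131982013, minus strand) had 31.1, 35.2 and 32.6 CPM in E4F1 shRNA libraries and 29.6, 28.0 and 33.9 CPM in control libraries, so the groups overlapped. In edgeR the difference was 0.11 on the log2 scale (SE 0.0823, adjusted p = 0.330), and none of 17 alternatives called it. Of 8 mitophagy genes 7 were tested and 3 fell, beside 14.4% of all genes tested. None of the 3 is among the 10 members. PINK1, the kinase that labels damaged mitochondria, averaged 42.8 ± 3.68 CPM in E4F1 shRNA cells and 60.1 ± 4.46 CPM in control cells (log2 fold change −0.49, SE 0.0750, edgeR adjusted p = 0.000137). BCL2L13, another mitophagy receptor, averaged 54.5 ± 1.36 CPM in E4F1 shRNA cells and 67.4 ± 1.96 CPM in control cells (−0.31, edgeR adjusted p = 0.000968). FKBP8, also a receptor of that kind, averaged 93.2 ± 9.67 CPM in E4F1 shRNA cells and 115 ± 7.43 CPM in control cells (−0.31, edgeR adjusted p = 0.00375). With the cell cycle score none of the 3 passed, at −0.31 for PINK1 (edgeR adjusted p = 0.0546), −0.27 for BCL2L13 (0.0692) and −0.20 for FKBP8 (0.220). FKBP8 also lost its call with the GC offset, at −0.12 (edgeR adjusted p = 0.116). BNIP3L, the paralogue of BNIP3, averaged 126 ± 4.43 CPM in E4F1 shRNA cells and 136 ± 1.21 CPM in control cells (−0.11, edgeR adjusted p = 0.122), and it passed with the GC offset at −0.23 (0.00366).

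KDM3A, a demethylase of histone H3 lysine 9 (ENSG00000115548.16, chromosome 2, 86440647 to 86492716, plus strand), had 56.96, 55.4 and 55.9 CPM in E4F1 shRNA libraries and 55.1, 55.9 and 53.0 CPM in control libraries. The groups overlapped, and edgeR gave 0.04 on the log2 scale (SE 0.0595, adjusted p = 0.683). Its relatives KDM3B and JMJD1C did not pass either. ANKRD37, an ankyrin repeat protein (ENSG00000186352.8, plus strand of chromosome 4, 185396021 to 185400628), had 22, 42 and 33 reads in E4F1 shRNA libraries and 36, 19 and 35 reads in control libraries. Its libraries spread more within each group than between groups (log2 fold change 0.03, SE 0.281, edgeR adjusted p = 0.957), and this SE is large beside the change of −0.46 seen for ADM. It overlaps UFSP2, which is on the opposite strand and had 1566 reads in E4F1 shRNA cells and 1295 in control cells. CA9, the cell-surface carbonic anhydrase often used as a marker of hypoxia (ENSG00000107159.12, plus strand of chromosome 9, 35673856 to 35681159), had 3, 1 and 1 reads in E4F1 shRNA libraries and 1, 0 and 0 reads in control libraries. It did not pass the filter on low counts, and no fold change is given for it.

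Per kb of merged exons the members spanned a wide range, and their order differed in part between the groups. In E4F1 shRNA cells HIF1A (94.7 ± 1.19 CPM per kb) was followed by EGLN1 (10.0 ± 0.334), NDRG1 (9.03 ± 0.130), BNIP3 (6.19 ± 0.381), VEGFA (5.80 ± 0.0624), KDM3A (4.18 ± 0.0602), ADM (1.73 ± 0.201), EGLN3 (1.26 ± 0.0615), ANKRD37 (0.760 ± 0.219) and CA9. In control cells the order was HIF1A (85.7 ± 0.651 CPM per kb), NDRG1 (12.9 ± 0.497), EGLN1 (7.63 ± 0.231), BNIP3 (5.73 ± 0.576), KDM3A (4.07 ± 0.109), VEGFA (3.30 ± 0.379), ADM (2.39 ± 0.0484), EGLN3 (0.925 ± 0.0606), ANKRD37 (0.754 ± 0.260) and CA9. EGLN1 and NDRG1 thus changed places, and so did VEGFA and KDM3A. Neighbours whose libraries overlapped were BNIP3 and VEGFA in E4F1 shRNA cells and EGLN3 and ANKRD37 in control cells. HIF1A was at the 97.8th percentile of the genes tested by its level over all 6 libraries, VEGFA at the 50.2nd and EGLN3 at the 23.1st. The merged exons of VEGFA span 14431 bases with many alternative exons, so its value per kb rests on a length that no single transcript has. Values per kb of the other members rest on merged exons too, among them KDM3A with 13423 bases, and the order depends on these lengths.

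Other HIF targets outside glycolysis also moved both ways. Of 29 listed genes 28 were tested, of which 6 rose and 6 fell, beside 14.4% of all genes tested in each direction. The median log2 fold change of the list was −0.02. DDIT4, which restrains mTORC1, had 85.4, 85.6 and 103 CPM in E4F1 shRNA cells and 39.1, 38.5 and 31.7 CPM in control cells. Its groups lay far apart, at 1.33 on the log2 scale (SE 0.0867, edgeR adjusted p = 1.00e-08). VLDLR, a lipoprotein receptor, averaged 54.5 ± 1.82 CPM in E4F1 shRNA cells and 31.1 ± 2.203 CPM in control cells (0.81, SE 0.0698, edgeR adjusted p = 3.24e-07). CCNG2, an atypical cyclin of arrested cells, rose by 0.33 on the log2 scale (edgeR adjusted p = 0.000615), MXI1, an antagonist of MYC, by 0.29 (0.00633), INSIG2, which retains the sterol sensor in the ER, by 0.25 (0.0331) and STC2, a secreted glycoprotein, by 0.75 at 1.52 ± 0.232 CPM in E4F1 shRNA cells and 0.903 ± 0.146 CPM in control cells (0.0495). DDIT4, VLDLR and CCNG2 passed under all 17 alternatives, whereas STC2 lost its call in 13 of 17 and INSIG2 in 7 of 17. As background, DDIT4, STC2, VLDLR and VEGFA are also known as genes that the stress factor ATF4 can activate. They were picked here from the genes that rose, so their shared direction carries no information. A part of ATF4 in these data was not tested.

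Among the HIF targets that fell, HMOX1, the haem-degrading oxygenase, averaged 40.7 ± 2.28 CPM in E4F1 shRNA cells and 65.7 ± 12.3 CPM in control cells (log2 fold change −0.69, SE 0.0999, edgeR adjusted p = 7.95e-05). BHLHE40, a transcriptional repressor, averaged 68.7 ± 2.75 CPM in E4F1 shRNA cells and 93.4 ± 9.37 CPM in control cells (−0.44, edgeR adjusted p = 0.000172). PLOD2, a collagen lysyl hydroxylase, averaged 247 ± 4.90 CPM in E4F1 shRNA cells and 314 ± 27.8 CPM in control cells (−0.35, edgeR adjusted p = 0.000450). Its relative PLOD1 fell by 0.23 on the log2 scale (edgeR adjusted p = 0.00450), the histone demethylase KDM4B by 0.40 (0.00282) and GBE1, the glycogen branching enzyme, by 0.25 (0.00452). With the cell cycle score as covariate, 3 genes of this list were called higher, and each of the 6 that fell lost its call, at −0.31 (HMOX1) to −0.13 (GBE1) on the log2 scale. PLOD1 also lost it with the GC offset (edgeR adjusted p = 0.133).

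Of 21 HIF targets in glycolysis, all tested, 6 fell, beside 14.4% of all genes tested. The median log2 fold change of the 21 was −0.10, with the trend over GC content not removed. All genes with 52.5% to 55% GC, the range in which ALDOA and PKM lie, had a median of −0.07. The number called lower was 3 without control library 3, 3 without E4F1 shRNA library 2 and 4 in DESeq2. It was 4 with the GC offset and 3 with the offset and the replicate block. With group only, edgeR called 0 higher (1 at an unadjusted p under 0.05), as did DESeq2 and limma-voom. In 6 other edgeR fits 1 or 2 genes were called higher, with 2 under the GC offset. ALDOC, a brain-type aldolase, fell to 1.36 ± 0.355 CPM in E4F1 shRNA cells, against 2.84 ± 0.242 CPM in control cells (−1.06, edgeR adjusted p = 0.00246). ALDOA, the main aldolase, fell by 0.24 on the log2 scale (edgeR adjusted p = 0.00299), PFKFB3, which makes an activator of phosphofructokinase, by 0.31 (0.00392), and PKM, pyruvate kinase, by 0.18 (0.0135). SLC2A1, the glucose transporter induced in hypoxia, averaged 124 ± 5.97 CPM in E4F1 shRNA cells and 112 ± 3.59 CPM in control cells and did not pass (0.15, edgeR adjusted p = 0.0550). It passed in 6 of 17 alternatives, among them the GC offset at 0.23 (0.00394) and the fits without control library 2 (0.0184) or E4F1 shRNA library 1 (0.0367). All 6 that fell lost their calls once the cell cycle score was a covariate, while ALDOC stood at −1.09, ALDOA at −0.23, PFKFB3 at −0.15 and PKM at −0.15 on the log2 scale. PKM also lost its call with the GC offset (edgeR adjusted p = 0.0794) and when control library 3 (0.0586) or E4F1 shRNA library 2 (0.0516) was left out. The called genes of this list that are not named here lost theirs with the GC offset too.

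**Figure D4:**
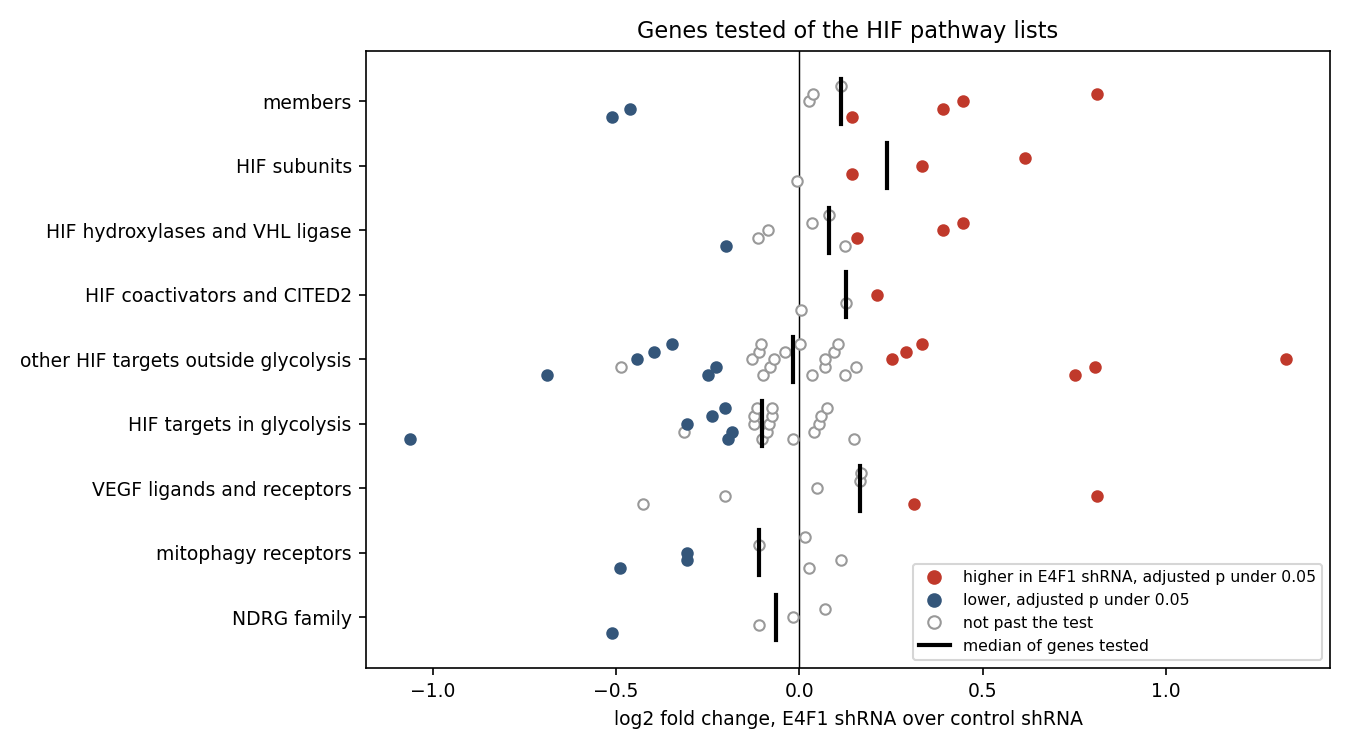
Log2 fold change (E4F1 shRNA over control shRNA) of each gene tested in the members and 8 pathway lists; red points were higher and blue points lower at an edgeR adjusted p of 0.05, open grey points did not pass, and black bars are medians of the genes tested. Members and other HIF targets outside glycolysis have points on both sides of 0, and the glycolysis list has called points only below 0. HIF1A, VEGFA, NDRG1, BNIP3, EGLN1 and EGLN3 appear in the members and in a pathway list.

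The members separate by how firmly their values held. VEGFA, NDRG1 and EGLN1 passed the test under all 17 alternatives, EGLN3 under 16, ADM under 11 and HIF1A under 10, and BNIP3, KDM3A and ANKRD37 under none, with no unadjusted p under 0.05 among those 3 in edgeR. By the size of the change, VEGFA was at the 96.7th percentile of the genes tested, NDRG1 at the 88.5th, ADM at the 85.9th, EGLN3 at the 85.0th, EGLN1 at the 81.0th and HIF1A at the 42.3rd.

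**Figure D5:**
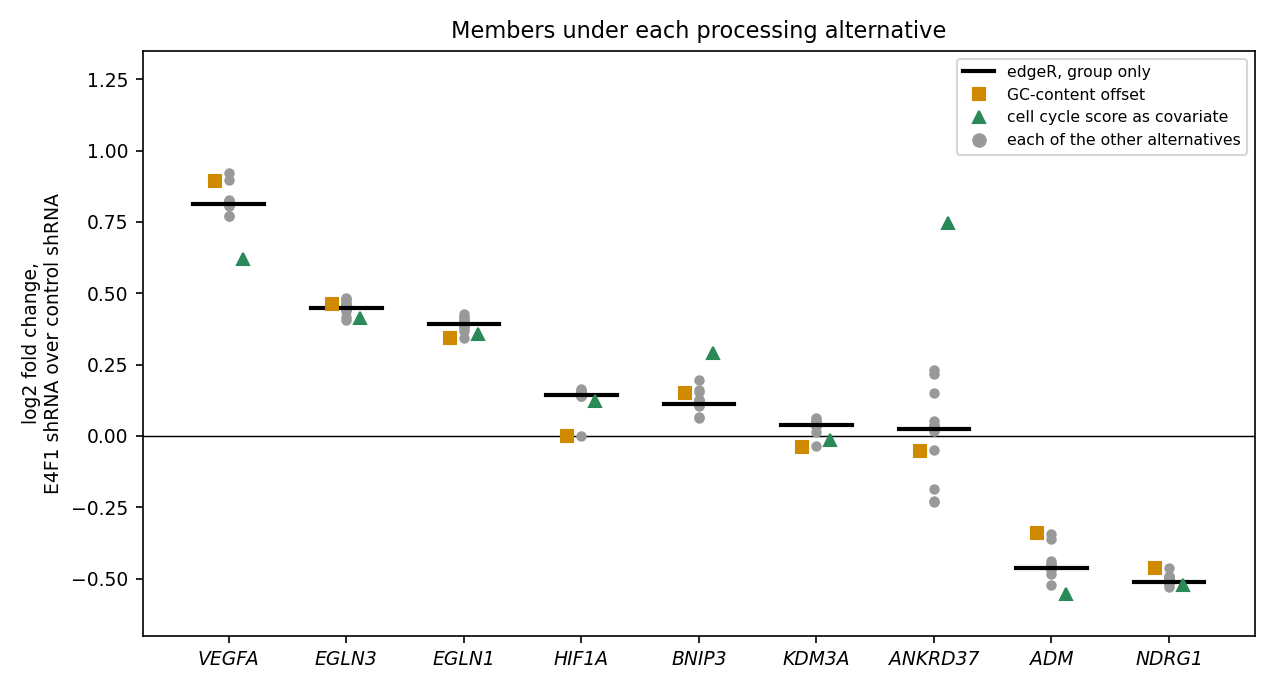
Log2 fold change (E4F1 shRNA over control shRNA, vertical axis) of each member tested in edgeR with group only (black bars), with the GC offset (squares), with the cell cycle score as covariate (triangles) and in each other alternative (grey points). HIF1A drops to 0.00 with the GC offset, VEGFA stays between 0.62 and 0.92, NDRG1 stays between −0.53 and −0.46, and ANKRD37 has points on both sides of 0.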

How the data were processed

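Per the labels' protocols, polyadenylated RNA of U2OS cells was extracted 72 h after infection and made into KAPA HyperPrep libraries, 3 for each shRNA. The deposited values are raw read counts per gene. Per the submitters' processing notes, bcl2fastq 2.20, STAR 2.5.1b and GRCh38 were used, and no annotation release is named there. The reverse-strand column was used (14947085 to 16892139 reads in genes per library), since the forward-strand column held 885046 to 977742. Lines of no gene (unmapped, multimapping, no feature, ambiguous) held 27.1% to 31.7% and stayed out. Of 58219 identifiers, 57881 matched GENCODE 29 without the version number, which gave symbols, 1-based coordinates, merged exon length, GC content of the longest transcript and 3′ UTRs.

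The test was the two-sided quasi-likelihood F-test of edgeR 4.0.16 (R 4.3.3) on counts filtered by filterByExpr and scaled by TMM, with no term but group, with Benjamini-Hochberg adjustment over 15765 genes and a threshold of 0.05. SE is the log2 fold change divided by the root of F. Depth limits the precision of genes with few reads. The p-values reflect how far the 3 pools of each group spread, with the spread estimate of each gene drawn toward a trend over all genes tested. With 3 libraries a group, an exact permutation test cannot go below 0.1.

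Alternatives tried were limma-voom (limma 3.58.1), the Wald test of DESeq2 1.42.0, edgeR with DESeq2 size factors or library totals, no filter or 1 CPM in 3 libraries, counts ignoring strand, a GC-content offset (a smoothed trend per library), a block for the replicate number, both together, a cell cycle score as covariate, and leaving out each library. The steps were tested on simulated data.

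The members and all lists were chosen with earlier results of these data known. Named genes were E4F1, the members, genes tested of the small families, and up to 4 called genes per list and direction by smallest adjusted p (6 among other HIF targets). Protein sequences of the hydroxylases were not used here. A gene of the list of other HIF targets is not reported here and was left out of that list's counts.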

Additional observations from a re-analysis of the deposited data

How the results depend on the processing

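Of all 15765 genes 4550 were called, against 1063 with the cell cycle score as covariate and 3031 to 5370 with 1 library left out. The fewest calls came without E4F1 shRNA library 2 and the most without control library 2. By direction, 2274 of all genes were higher and 2276 lower, against 632 higher and 431 lower with the cell cycle score. Of the members 4 were higher, against 2 with the cell cycle score and 3 to 4 with 1 library left out. Of the members 2 were lower, against 1 with the DESeq2 Wald test, 1 with the GC offset, 1 with the GC offset and the replicate block, 1 with the cell cycle score, and 1 to 2 with 1 library left out (1 without control library 1 and without E4F1 shRNA library 3). In each of these cases the cause was not tested.

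Signs turned only where the difference was near 0 or the cell cycle score was fitted. On the log2 scale ANKRD37 was −0.052 with the GC offset, −0.049 with that and the replicate block, −0.23 ignoring strand and −0.23 to 0.23 with 1 library left out. KDM3A was −0.0371 with the GC offset, −0.0369 with that and the replicate block, and −0.013 with the cell cycle score. ARNT was 0.0049 in DESeq2, 0.0058 with no filter on low counts and −0.033 to 0.021 with 1 library left out. With the cell cycle score VEGFB was −0.052.

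The deviations of libraries with the same number had correlations of 0.0078, 0.050 and 0.048 for numbers 1, 2 and 3, and not every library correlated best with its own number. These 3 correlations cannot show whether libraries with the same number were handled together, and the labels do not say. With the replicate block alone 4865 genes were called, and 4 members were higher and 2 lower. Read numbers limit CA9, ANKRD37, ADM and EGLN3, and a value per kb depends on the annotated exons.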
